A study of Mus musculus with 6 samples.

Results

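miR-101 is a small family of microRNAs (miRNAs), short RNAs that lower the output of messenger RNAs carrying a matching stretch, mostly in the 3′ untranslated region (UTR). Both rows of the deposited table whose name starts with mmu-miR-101 are described here, mmu-miR-101a-3p and mmu-miR-101a-5p. They are 2 of the 451 miRNAs listed and were taken by name, although earlier results of these data, their values included, were known. mmu-miR-101b and mmu-miR-101c are not listed, and their levels were not analysed here. The study asked which miRNAs T cells pass to B cells in small extracellular vesicles (EVs), the small membrane particles that cells release, and compared the small RNA of T cell blasts with that of the EVs they shed.

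The small EVs and the T cell blasts came from spleens of C57BL/6 mice, wild type and 8 to 12 weeks old, all of whose splenocytes entered the culture. After removal of red cells, the splenocytes were activated with concanavalin A at 2 µg/ml, a plant lectin that stimulates T cells. They were washed at 36 h and then grown with interleukin-2 at 50 U/ml in medium whose serum had been cleared of vesicles. Small EVs were pelleted at up to 100000 g from the medium of these cultures at day 6, and the blasts are the cells of such cultures. Each group holds 3 libraries that the labels number 1, 2 and 5, so there are 6 in all, and the methods call them independent experiments. The methods describe no sort of these cultures and no purification of the pelleted vesicles, although the study calls the cells CD4+ T cells. These are therefore bulk samples, and a vesicle library can hold any particle that the culture or its medium sheds.

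A miRNA is cut from a hairpin precursor whose stem gives 2 arms, named 5p and 3p. One arm, the guide, is usually kept in the silencing complex, and the other is mostly degraded. The guide finds its targets chiefly through its seed, bases 2 to 8 counted from its 5′ end. The miR-101 guide is the 3p arm. It is known as a repressor of Icos, the inducible costimulator through which follicular helper T cells help B cells, and of Ezh2, the methyltransferase of the Polycomb repressive complex that places the silencing mark on histone H3. No messenger RNA was measured in these libraries, so neither role was tested.

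The mature sequences are given first because the reads were assigned by sequence alone, and related copies of miR-101 differ by little more than where they begin. They are RefSeq sequences placed on GRCm38.p6, written 5′ to 3′, with bases 2 to 8 in capitals.
mmu-miR-101a-3p: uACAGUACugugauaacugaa
mmu-miR-101a-5p: uCAGUUAUcacagugcugaugc
mmu-miR-101b-3p: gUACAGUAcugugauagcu
mmu-miR-101c: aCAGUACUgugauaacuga
mmu-miR-144-3p: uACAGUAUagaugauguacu
mmu-miR-101b-3p began 1 base earlier than mmu-miR-101a-3p and matched it in 17 of the 18 bases they share, with the substitution A16G, counted from 1 at the 5′ end of mmu-miR-101a-3p and read on to mmu-miR-101b-3p. mmu-miR-101c began 1 base later, and all 19 of its bases were those of mmu-miR-101a-3p. Both RefSeq entries are 19 bases long, and the authors kept reads of at least 20 bases. Reads of Mir101c cannot be told from those of Mir101a over the 19 bases of its entry, whereas reads of Mir101b differ at A16G. Whether reads of either gene were counted as mmu-miR-101a-3p was not tested. No listed miRNA shared bases 2 to 8 with either arm, among the 370 of 451 with a RefSeq sequence. mmu-miR-144-3p, a red cell miRNA, was the single one that shared bases 2 to 7 with mmu-miR-101a-3p.

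Both arms come from Mir101a, an 83-base hairpin on the minus strand at chr4:101346945-101347027 (GRCm38.p6), shown with the 5p arm (bases 14 to 35) and the 3p arm (bases 51 to 71) in capitals to place the abundant arm beside the scarce one.
Mir101a hairpin: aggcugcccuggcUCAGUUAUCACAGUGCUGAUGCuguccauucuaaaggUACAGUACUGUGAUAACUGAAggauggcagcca
The hairpin lies inside an exon (chr4:101346531-101347103) of the long intergenic non-coding RNA gene E130102H24Rik (chr4:101346531-101356735), on the same strand. Mir101b (its mature 3p arm at chr19:29135338-29135356) lies within Rcl1 and overlaps none of its exons, and Mir101c (mature sequence at chr9:3038680-3038698) lies in no other gene of the GENCODE annotation.

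The UTR stretches below are shown because Ezh2 and Icos are the targets for which miR-101 is known in T cells. The main search was for the letters that pair with bases 2 to 8 of mmu-miR-101a-3p, GTACTGT. It covered the sense strand of the longest annotated 3′ UTR of each gene (GENCODE, GRCm38). The letters for bases 2 to 8 of mmu-miR-101b-3p, mmu-miR-101c and mmu-miR-144-3p were searched for as well. The matching letters are in capitals.
Ezh2, chr6:47530475-47530504, minus strand: gccttagcttcaggaaccttgaGTACTGTg
Ezh2, chr6:47530420-47530449, minus strand: tttgaaattctgaatttgcaaaGTACTGTa
Icos, chr1:60999270-60999299, plus strand: taatgctggctatgtacagtacAGTACTGa
The 402-base 3′ UTR of Ezh2 held GTACTGT at 2 places, starting 59 and 114 bases into it. The motif was present in the first 402 bases of 2.71% of the 15287 3′ UTRs that are at least as long. The 2606-base 3′ UTR of Icos held none, against 15.7% of the 3626 3′ UTRs of that length or more with at least 1 in their first 2606 bases. The Icos stretch shown holds AGTACTG, which pairs with bases 2 to 8 of mmu-miR-101c and with bases 3 to 9 of mmu-miR-101a-3p. That motif overlaps GTACTGT by all but 1 base and was present in 15.4% of the same 3′ UTRs. The Icos UTR held 0 matches to TACTGTA, for mmu-miR-101b-3p, and 0 to ATACTGT, for mmu-miR-144-3p. Those motifs were present in 20.8% and 21% of the same 3′ UTRs. The Ezh2 UTR held AGTACTG at 2 places and TACTGTA at 1, all overlapping those shown, and ATACTGT at 0. A match is a description of the letters and not a measured site, and a UTR without GTACTGT says only that these letters are not in that window.

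Levels are normalised CPM, that is read counts scaled by the authors to a library of 1000000 and then between libraries. The values stepped in whole reads, so reads per library were recovered. The small EV libraries held 463498, 433602 and 261393 reads, and the T cell blast libraries held 275708, 279737 and 236432. A count of 0 allows up to 3 reads, which stand for 6.28 to 10.4 CPM in the small EV libraries and 11.0 to 14.4 CPM in the blast libraries. Intervals and these floors cover counting error only. Of the 155 miRNAs with at least 10 reads in every library, number 5 was the lowest small EV library for 43.9%, the lowest blast library for 32.9% and the lowest of both groups for 20%. As mmu-miR-101a-3p was one of the last, results that rest on number 5 are given with and without it.

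The guide arm, mmu-miR-101a-3p, was among the better detected miRNAs of both sample types. Its level was 1106, 1077 and 601 CPM in small EVs 1, 2 and 5. In T cell blasts 1, 2 and 5 it was 1259, 1243 and 905 CPM. The groups overlapped, because vesicle libraries 1 and 2 lay above blast library 5, and number 5 was the lowest library of each group. These values rest on 528, 493 and 173 reads in the small EVs and on 336, 339 and 189 reads in the blasts. Counting alone gives 95% Poisson intervals of 514 to 697 CPM for small EVs 5 and 984 to 1176 CPM for small EVs 2, which do not meet. The same held in the blasts, with 780 to 1043 CPM for number 5 and 1114 to 1382 CPM for number 2. The spread between cultures was thus wider than counting error, with a coefficient of variation of 30.6% in small EVs and 17.6% in blasts, where counting alone gives 5.01% and 5.89%.

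The mean level of mmu-miR-101a-3p was 928 ± 284 CPM in small EVs and 1135 ± 200.0 CPM in T cell blasts (SD, n = 3 each). The log2 fold change on the log2(CPM + 1) scale was -0.33 (SE 0.26, 95% interval -0.94 to 0.29) by limma fitted over all miRNAs, with an adjusted p of 0.488. An exact 2-sided permutation test of the CPM gave p = 0.5, where 3 against 3 allows no p below 0.1. No difference between small EVs and blasts thus passed the test, and the interval holds both no change and a level in the vesicles lower by 0.94 on the log2 scale. At the adjusted p of 0.2 used by the study, 56 of the 451 miRNAs were called lower in small EVs (12.4%) and 95 were called higher (21.1%), and neither miR-101a arm was among them. The value of mmu-miR-101a-3p was not extreme among all miRNAs, since 145 of the 451 had a lower log2 fold change (32.2%) and the median of all was 0.02. In bulk samples fewer cells or particles that carry a miRNA and less of it in each cannot be told apart.

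Set side by side by number, a pairing that the labels do not state, the small EV library held less mmu-miR-101a-3p in 3 of 3 pairs. The level in the vesicles was 0.879 times that in the blasts for number 1, 0.866 times for number 2 and 0.664 times for number 5. The gap was widest for number 5, the pair with the lowest levels. With the number as a block, the log2 fold change stayed at -0.33 and its adjusted p by limma was 0.146, which passes the threshold of 0.2, as 73 of the 451 miRNAs called lower did (16.2%). edgeR's quasi-likelihood test on the recovered reads with the same block gave -0.32 and an adjusted p of 0.195. Without the block neither edgeR (adjusted p = 0.517) nor DESeq2 (adjusted p = 0.674) called it. Without number 5 in both groups the log2 fold change was -0.20, with an adjusted p of 0.123 by limma. In that fit 68 of the 451 miRNAs were called lower. Leaving out small EVs 5 alone brought it to -0.04, with an adjusted p of 0.947 by limma. Leaving out blasts 5 alone brought it to -0.48, with an adjusted p of 0.318 by limma. Number 5 was low in both groups, so the unpaired difference depended on which of its libraries was kept. A call of lower mmu-miR-101a-3p in small EVs thus rested on pairing the libraries by number or on leaving number 5 out. The log2 fold change lay between -0.50 and -0.04 in every fit run.

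**Figure D1:**
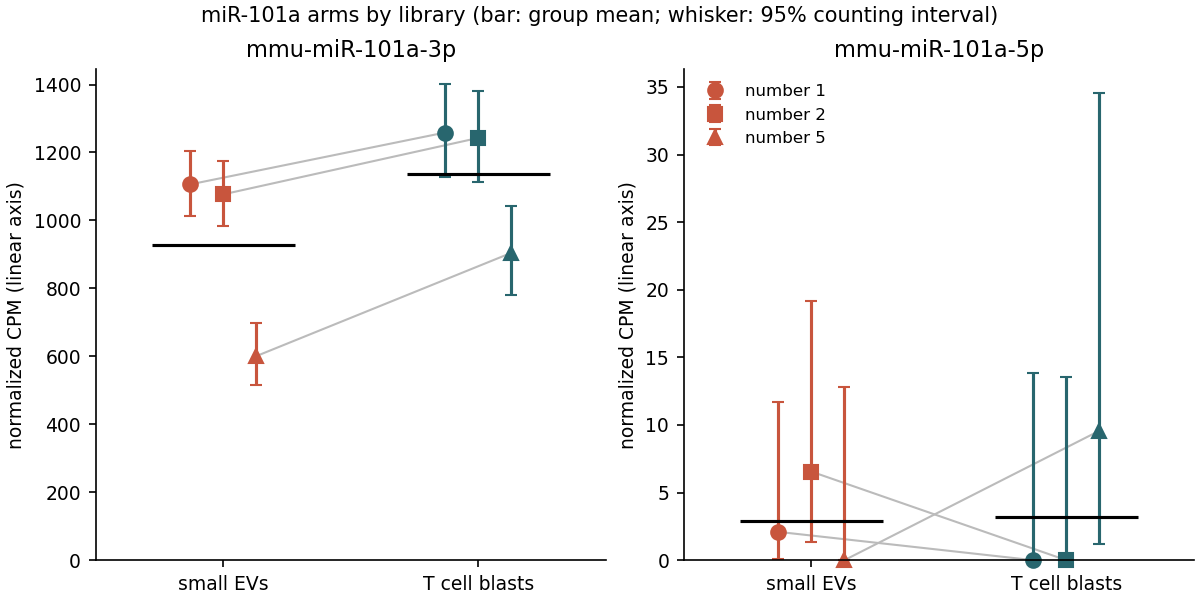
Level of mmu-miR-101a-3p and mmu-miR-101a-5p (y axes, normalised CPM) in each library of small EVs and T cell blasts, with points for the libraries, whiskers for 95% Poisson counting intervals, grey lines between libraries of one number and black bars for the group means. The 3p arm lay between 601 and 1106 CPM in small EVs and between 905 and 1259 CPM in blasts, and the points of the 5p arm lay below 10 CPM in all 6.

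The passenger arm, mmu-miR-101a-5p, was at the limit of detection. Small EVs 1, 2 and 5 held 1, 3 and 0 reads of it, or 2.09, 6.55 and 0 CPM. T cell blasts 1, 2 and 5 held 0, 0 and 2 reads, or 0, 0 and 9.57 CPM. Reads appeared in 2 of 3 vesicle libraries and in 1 of 3 blast libraries, and no library exceeded 3 reads. The mean was 2.88 ± 3.35 CPM in small EVs and 3.19 ± 5.53 CPM in blasts (SD, n = 3 each). The fitted log2 fold change was 0.38 (SE 1.16, 95% interval -2.33 to 3.09) by limma, with an adjusted p of 0.878. It was thus opposite in sign to the difference of the mean CPM. An exact permutation test of the CPM gave p = 1. The ratio of the summed reads, each scaled to its group's depth, was 1.22 and had a counting interval of 0.175 to 13.5. A difference in this arm was not detectable at this depth. Leaving out number 5 in both groups leaves reads in the vesicles alone, with a log2 fold change of 2.27 and an adjusted p of 0.0676 by limma from 4 reads against 0. In that fit 113 of the 451 miRNAs were called higher.

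Between the 2 listed arms, the 3p arm took nearly all reads in both sample types, which is a comparison that no scaling between libraries can move. Reads of the other Mir101 genes counted as mmu-miR-101a-3p would lower the 5p share below that of Mir101a itself, and how many there were was not tested. The 5p arm made up 4 of 1198 reads of the 2 arms in small EVs, or 0.334% (95% Clopper-Pearson interval 0.0910 to 0.853%). In T cell blasts it made up 2 of 866, or 0.231% (0.0280 to 0.832%). By library the share was 0.189, 0.605 and 0% in small EVs 1, 2 and 5, and 0, 0 and 1.05% in blasts 1, 2 and 5. The groups overlapped, and an exact permutation test over libraries gave p = 1 for a mean difference of -0.08 percentage points. The sign of that difference turned when reads were summed over each group, or when number 5 was left out of either or both groups.

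Most precursors compared were less one-sided. The 116 compared are those whose listed arm names differ only in 5p and 3p. Among these mmu-miR-101a had the 13th lowest share of reads in its minor arm, 0.291% over the 6 libraries (6 reads against 2058). It carries the same uncertainty over its 3p reads. The median share was 6.58%, with quartiles of 1.34% and 24.7%. Its neighbours in that order were mmu-miR-25, at 0.267%, and mmu-miR-29a, at 0.332%. The order carries no counting error, and with 6 reads in the minor arm the places around the 13th are not resolved. The minor arm was the 5p arm in 46 of the 116 precursors. Both arms of each had to pass the authors' filter of 1 CPM in at least 3 libraries, so precursors whose minor arm was rarer are not in this order. Arms with a gene number in 1 name are left out as well, such as mmu-miR-16-1-3p (19.2 CPM in small EVs) beside mmu-miR-16-5p (28757 CPM). The place of mmu-miR-101a among all listed precursors was thus not established.

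**Figure D2:**
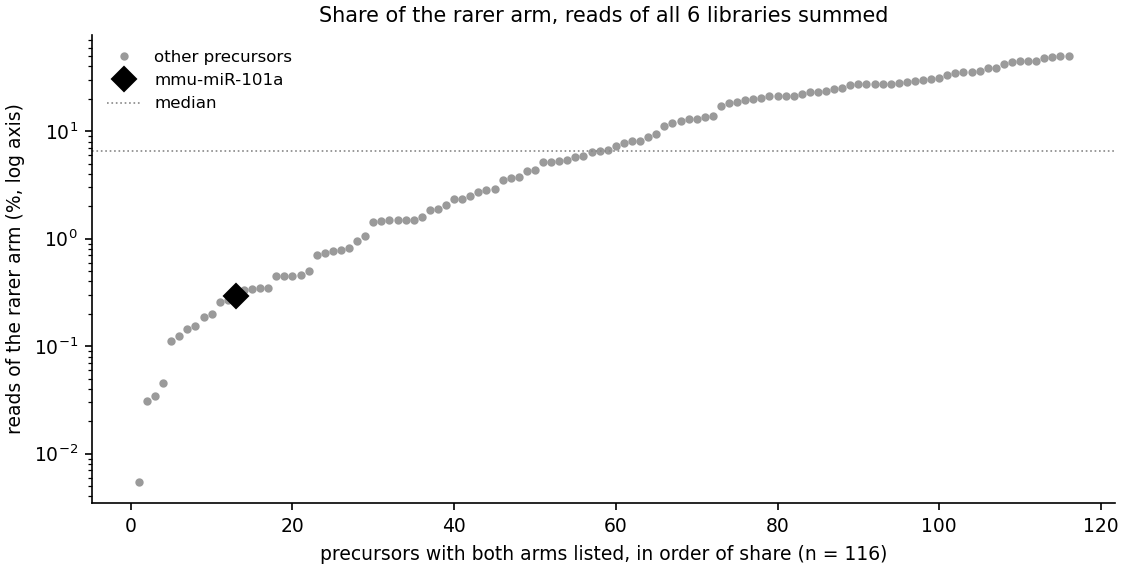
Share of the minor arm among the reads of both arms (y axis, percent, log scale) for 116 precursors in order, with reads summed over the 6 libraries and mmu-miR-101a marked. It stands 13th from the lowest at 0.291%, from 6 reads of the minor arm, against a median of 6.58%. Counting error is not shown.

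By mean level mmu-miR-101a-3p took place 67 of 451 in small EVs and place 59 in T cell blasts. In single libraries it took places 61, 63 and 82 in small EVs 1, 2 and 5, and 54, 55 and 66 in blasts 1, 2 and 5. It made up 0.114, 0.114 and 0.0662% of the reads in the vesicle libraries and 0.122, 0.121 and 0.0799% in the blast libraries. Its neighbours in small EVs were mmu-miR-221-3p (1013 ± 668 CPM) and mmu-miR-21a-3p (983 ± 65.6 CPM) above it, and mmu-miR-486a-5p (823 ± 169 CPM) and mmu-miR-421-3p (806 ± 62.4 CPM) below it (SD, n = 3). In blasts they were mmu-miR-23b-3p (1185 ± 472 CPM) and mmu-miR-98-5p (1165 ± 164 CPM) above, and mmu-miR-20a-5p (1070.3 ± 160.5 CPM) and mmu-miR-181d-5p (1021 ± 18.9 CPM) below. The ranges of all 8 neighbours over the 3 libraries of their group overlapped that of mmu-miR-101a-3p, so the order among them is not resolved, and no test was made because they were chosen for their means. Of the miRNAs that the study followed into B cells, mmu-miR-20a-5p averaged 1354 ± 170 CPM in small EVs, the nearest of 3 to mmu-miR-101a-3p. mmu-miR-25-3p was far more abundant, at 13813 ± 1782 CPM in small EVs and 8786 ± 1159 CPM in blasts. mmu-miR-155-3p was far rarer, at 7.42 ± 6.99 CPM in small EVs and 17.6 ± 12.3 CPM in blasts.

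The miRNA whose levels over the 6 libraries were most like those of mmu-miR-101a-3p was mmu-miR-26a-5p, another known repressor of Ezh2. Likeness was Pearson's r of log2(CPM + 1), computed against the 154 other miRNAs with at least 10 reads in every library. It is a description over 6 points that share their depth and their cultures, and 4 of the 154 exceeded 0.8. For mmu-miR-26a-5p r was 0.98 and Spearman's rho was 1. Its level was 19212, 18883 and 12076 CPM in small EVs 1, 2 and 5, and 20809, 20258 and 14822 CPM in blasts 1, 2 and 5. It was thus lowest in number 5 of each group, as mmu-miR-101a-3p was. Next came both arms of mmu-miR-150, a miRNA of resting lymphocytes, with r of 0.87 for each. mmu-miR-150-5p stood at 14554, 11794 and 4844 CPM in small EVs 1, 2 and 5 and at 20089, 17520 and 4647 CPM in blasts 1, 2 and 5, again lowest in number 5. Over the 4 libraries without number 5, r was 0.98 for mmu-miR-26a-5p, 0.95 for mmu-miR-150-5p and 0.93 for mmu-miR-150-3p. In these 4, mmu-miR-101a-3p stood close together within each group, at 1106 and 1077 CPM in small EVs and 1259 and 1243 CPM in blasts. There r thus mainly says whether the other miRNA was lower or higher in small EVs, and is a weak check of likeness. mmu-miR-328-3p (r = 0.87) and mmu-miR-192-5p (r = 0.79) followed, with rho of 0.54 and 0.43. Without number 5 their r was 0.73 and -0.99, so the likeness of mmu-miR-192-5p rested on those 2 libraries.

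**Figure D3:**
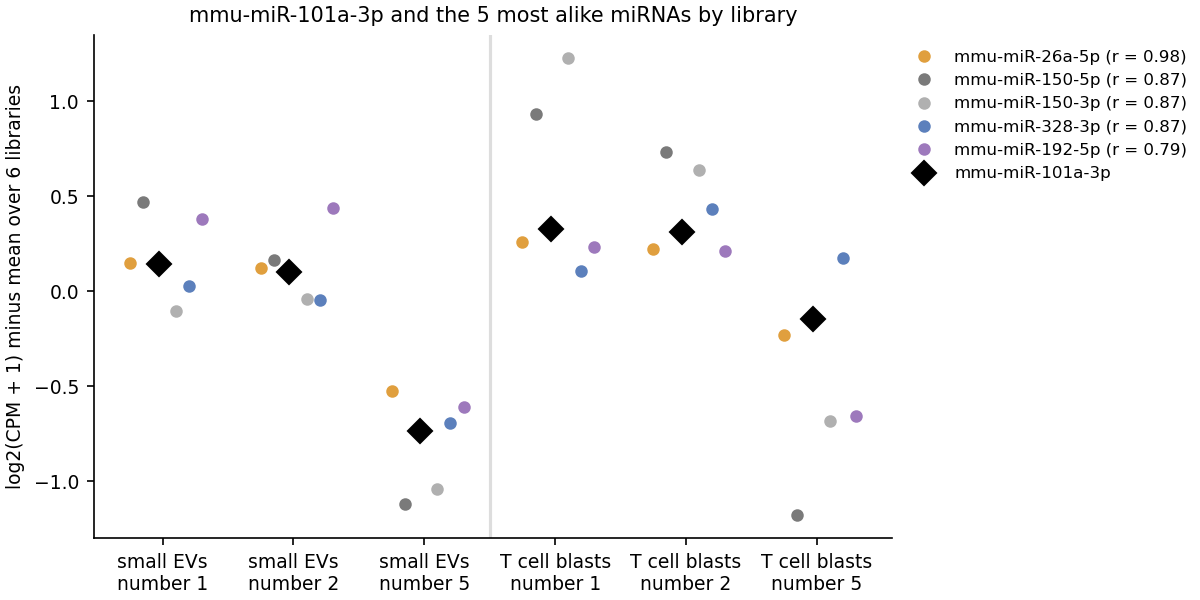
Log2(CPM + 1) of mmu-miR-101a-3p and of the 5 miRNAs most like it, each minus its own mean over the 6 libraries (y axis), by library (x axis). mmu-miR-101a-3p and mmu-miR-26a-5p lie close together in every library (r = 0.98), and both are lowest in number 5 of each group.

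Ratios within a library do not depend on how libraries were scaled, and 2 of them were compared. The first set mmu-miR-101a-3p against mmu-miR-26a-5p. mmu-miR-101a-3p stood at 5.76, 5.70 and 4.97% of mmu-miR-26a-5p in small EVs 1, 2 and 5, and at 6.05, 6.13 and 6.10% in blasts 1, 2 and 5. All 3 vesicle values lay below all 3 blast values, and the blast values were nearly equal. The mean log2 ratio was -4.19 ± 0.12 in small EVs and -4.03 ± 0.01 in blasts (SD, n = 3 each). The difference of -0.16 had an exact permutation p of 0.1, the smallest that 3 against 3 can give, and an adjusted p of 0.1 over the 2 ratios. Without number 5 in both groups it was -0.09. A design of this size cannot reach 0.05, and groups that do not overlap were found for 157 of the 451 single miRNAs (34.8%).

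The second ratio set mmu-miR-101a-3p against mmu-miR-146a-5p, a miRNA induced by NF-κB in activated T cells that is known to repress Icos as well. mmu-miR-101a-3p stood at 21.6, 16.1 and 10.8% of mmu-miR-146a-5p in small EVs 1, 2 and 5, and at 71.9, 78.7 and 46.0% in blasts 1, 2 and 5. Every vesicle value lay below every blast value. The mean log2 ratio was -2.68 ± 0.50 in small EVs and -0.65 ± 0.41 in blasts (SD, n = 3 each), a difference of -2.04 with an exact permutation p of 0.1 and an adjusted p of 0.1. Without number 5 in both groups it was -2.01. Most of that difference lay in mmu-miR-146a-5p itself, which stood at 5115, 6703 and 5545 CPM in small EVs 1, 2 and 5 and at 1749, 1580 and 1967 CPM in blasts 1, 2 and 5. Its log2 fold change was 1.71 (SE 0.15), with an adjusted p of 0.000425 by limma. The 2 Icos repressors thus stood in different proportion in vesicles and cells, with mmu-miR-146a-5p well above mmu-miR-101a-3p in small EVs and closer to it in blasts.

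**Figure D4:**
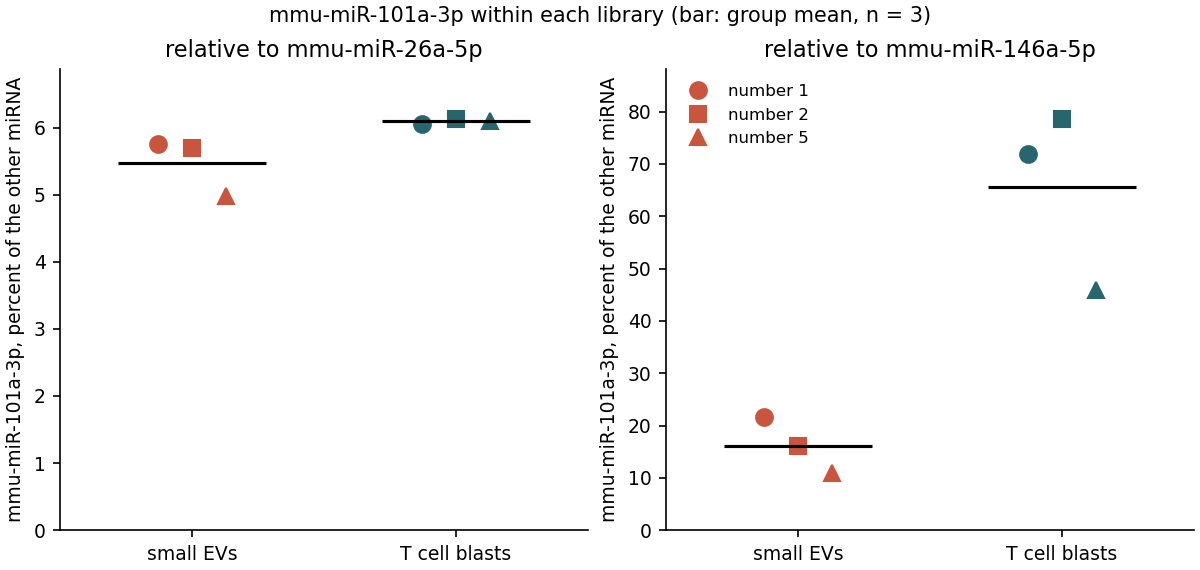
mmu-miR-101a-3p as a percentage of mmu-miR-26a-5p and of mmu-miR-146a-5p (y axes, percent) in each library of small EVs and T cell blasts, with points for the libraries and bars for the group means. All small EV values lie below all blast values in both panels, narrowly against mmu-miR-26a-5p and by a wide margin against mmu-miR-146a-5p.

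Of the other miRNAs known to act on Icos or in follicular helper T cells, some were called higher in small EVs and the rest passed in neither direction. The list was drawn up with earlier results of these data known. It holds mmu-miR-146a-5p, mmu-miR-155-5p, mmu-miR-10a-5p and 6 members of the miR-17-92 cluster, which promotes follicular helper cells. Of these 9, all measured, 4 were called higher in small EVs, 0 lower and 5 passed in neither direction, with a median log2 fold change of 0.34, against 0.02 over all miRNAs and 21.1% of them called higher. Rescaling to the miRNAs under 5% of every library gave 4 higher and 1 lower, mmu-miR-92a-3p (-0.31, adjusted p = 0.186 by limma). In that fit 81 of all 451 miRNAs were called higher and 78 lower. Without number 5 in both groups 5 were higher and 1 lower, mmu-miR-18a-5p (-0.33, adjusted p = 0.172 by limma). There 113 of all 451 miRNAs were called higher and 68 lower. With the replicate block 5 were called higher and 0 lower, where 23.5% of all 451 miRNAs were called higher. mmu-miR-10a-5p, which is known to limit conversion to follicular helper cells, rose most among them, at 5815 ± 1527 CPM in small EVs and 702 ± 201 CPM in blasts (SD, n = 3 each). Its log2 fold change was 3.05 (SE 0.26), with an adjusted p of 0.000425 by limma. mmu-miR-155-5p, needed for follicular helper responses, rose by 1.29 (SE 0.22, adjusted p = 0.0063 by limma) on the same scale. Of the cluster members, mmu-miR-19a-3p rose by 0.48 (SE 0.14, adjusted p = 0.0454 by limma). The other 5 had log2 fold changes between -0.19 and 0.34. mmu-miR-101a-3p, at -0.33, lay below all 9 of the list, although its interval overlaps those of the lowest members. That order turned without number 5 in both groups, where mmu-miR-101a-3p stood at -0.20 and mmu-miR-18a-5p at -0.33. The difference between mmu-miR-101a-3p and the list was tested against mmu-miR-146a-5p alone.

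Of the Ezh2 repressors listed here other than miR-101, most were called higher in small EVs. This list too was drawn up with earlier results of these data known. Of the 8 listed, 7 were measured, and mmu-miR-214-3p was not analysed here. Of the 7, 6 were called higher in small EVs, 0 lower and 1 in neither direction, with a median log2 fold change of 0.62, where 21.1% of all 451 miRNAs were called higher. The 1 not called was mmu-miR-26a-5p, at -0.17 (SE 0.23, adjusted p = 0.676 by limma), the same miRNA that followed mmu-miR-101a-3p most closely over the libraries. mmu-miR-26b-5p, whose seed is that of mmu-miR-26a-5p, was called higher by 0.32 (adjusted p = 0.181 by limma), but not by edgeR (adjusted p = 0.205) or DESeq2 (adjusted p = 0.294). It also lost its call by limma without small EVs 1, without small EVs 2 or without any 1 of the blast libraries (adjusted p 0.203 to 0.406). Rescaling to the miRNAs under 5% of every library brought it to 0.15 (adjusted p = 0.521 by limma). mmu-miR-98-5p, of the let-7 family, was called higher by 0.66 (SE 0.18, adjusted p = 0.0376 by limma), and mmu-let-7a-5p, mmu-let-7b-5p and mmu-let-7c-5p by 0.50 to 0.63. mmu-let-7b-5p lost its call under that rescaling (adjusted p = 0.202 by limma). Other members of this family, not on the list, did not rise with them. mmu-let-7d-5p was called lower (-0.34, adjusted p = 0.0866 by limma). mmu-let-7e-5p (-0.26), mmu-let-7f-5p (-0.09), mmu-let-7g-5p (0.16) and mmu-let-7i-5p (-0.09) were called in neither direction. The counts of calls thus depend on which members were listed. mmu-miR-138-5p was called higher by 2.22 from 16 reads in small EVs and 2 in blasts, not by DESeq2 (adjusted p = 0.304) and not by limma without small EVs 1 (adjusted p = 0.225) or small EVs 5 (adjusted p = 0.206). At an adjusted p of 0.05 by limma, 2 of the 7 were called higher, where 12.9% of all 451 miRNAs were.

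**Figure D5:**
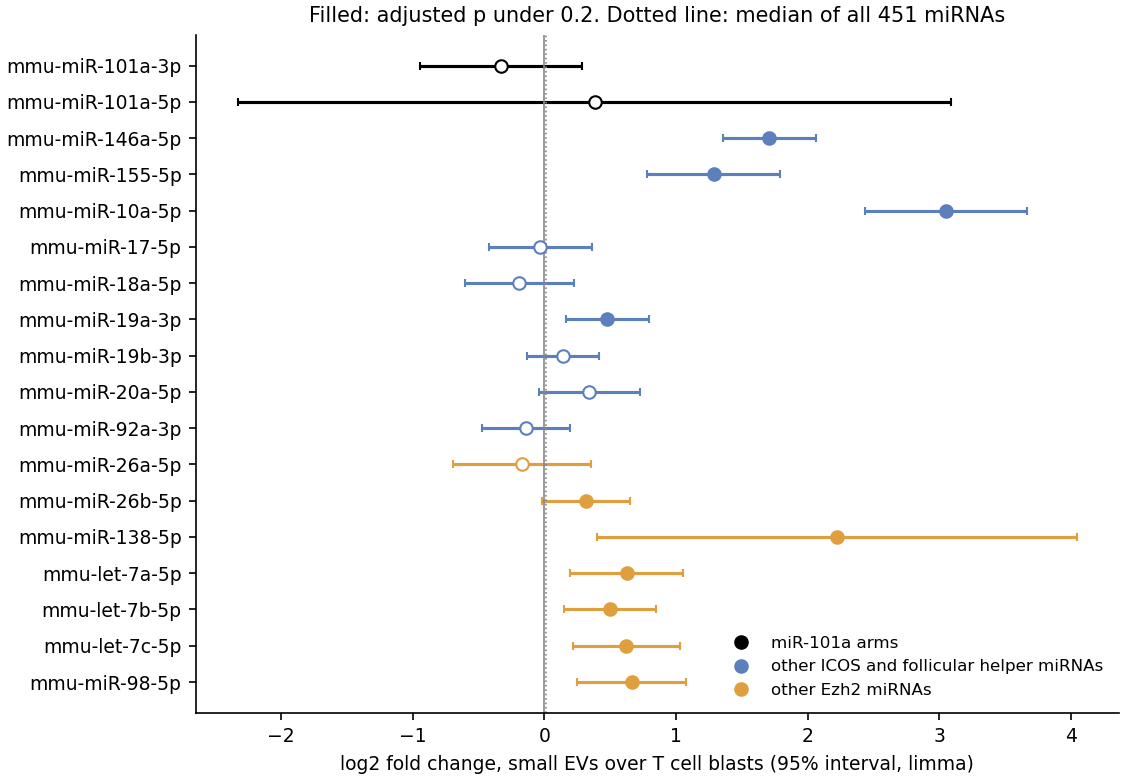
Log2 fold change of small EVs over T cell blasts (x axis, log2(CPM + 1) scale) for the miR-101a arms, the Icos and follicular helper miRNAs and the Ezh2 miRNAs, with 95% intervals by limma and filled points for an adjusted p under 0.2. Both miR-101a arms are open, at -0.33 and 0.38, while 4 of 9 and 6 of 7 of the other lists are filled, all to the right of 0.

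mmu-miR-144-3p, the listed miRNA whose bases 2 to 7 are those of mmu-miR-101a-3p, had 1, 1 and 3 reads in small EVs 1, 2 and 5 (2.09, 2.18 and 10.4 CPM) and 0 reads in each blast library. It was called higher in small EVs (adjusted p = 0.0591 by limma), from 5 reads in all, and added little to the shared bases beside the 1194 reads of mmu-miR-101a-3p. It is one of 5 red cell miRNAs, all of which were called higher in small EVs, where 21.1% of all 451 miRNAs were. Their summed level in small EVs was 1215 to 1861 CPM, against 246 to 258 CPM in blasts, and 3 of the 5 had 0 reads in the blasts. The 5 measured stromal and endothelial miRNAs were also all called higher, with sums in small EVs of 1128 to 1645 CPM, against 214 to 273 CPM in blasts. Of these, 2 had 0 reads in the blasts. The authors' filter of 1 CPM in at least 3 libraries keeps such miRNAs only if all 3 small EV libraries hold them. The direction of the miRNAs at 0 reads in the blasts, mmu-miR-144-3p among them, was thus fixed by the filter. Their calls are not a result about them. Of 2 myeloid markers mmu-miR-223-3p was measured, in small EVs at 15.3 to 20.9 CPM and in blasts at 0 to 3.67 CPM. The 4 T cell miRNAs were abundant in both sample types, with sums in small EVs of 25478 to 36690 CPM, against 26657 to 37770 CPM in blasts. Those sums hold members that moved apart, since mmu-miR-155-5p (1.29) and mmu-miR-181a-5p (0.64) were called higher in small EVs and mmu-miR-142a-3p (-1.19) lower. mmu-miR-150-5p (-0.33) was called lower with the replicate block alone (adjusted p = 0.182 by limma). The part of RNA from other cells or from the medium in the levels of miR-101a was not tested.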

How the data were processed

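Small RNA was sequenced in small EVs and T cell blasts as single reads of 75 bp. The authors trimmed reads with Cutadapt, discarded those under 20 bases or not trimmed, aligned the rest to mature miRNAs of miRBase 21 (bowtie or BWA per the methods, BWA per the submitters' processing notes) and counted them with RSEM 1.17, so no genome build was involved. The deposited signal is the authors' TMM-normalised CPM (logratio trim of 0.4) for miRNAs at 1 CPM or more in at least 3 libraries. Within 0.05 of a read, 100% of values were whole reads, which were recovered for count tests. No column was left out.

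Small EVs were compared with T cell blasts by limma 3.58.1 with trend (R 4.3.3) on log2(CPM + 1) over 451 miRNAs, with Benjamini-Hochberg adjusted p under 0.2 as in the methods. Single values were compared by exact permutation over libraries. The p-values measure the spread between these cultures. Same-numbered libraries deviated together from their group means, with correlations of 0.15, 0.16 and 0.34 over 284 miRNAs, each over 0.1, so numbers 1, 2 and 5 were treated as paired in the block. This pairing comes from the data, as the labels do not state it. Small EVs 1 correlated as well with blasts 2 (0.17), and small EVs 2 with blasts 1 at 0.11. The correlations thus set number 5 apart but cannot tell which libraries of numbers 1 and 2 belong together.

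Alternatives were pseudocounts of 0.5 and 5, a filter at a mean of 10 CPM, other scalings (3), the block, edgeR 4.0.16 and DESeq2 1.42.0 on reads, a threshold of 0.05 and each library left out. Leaving out number 5 in both groups was added after seeing the data. Named miRNAs were the members, listed miRNAs sharing bases 2 to 7, up to 4 to a list with values, the neighbours in level, the 5 most alike and 2 miRNAs studied by the authors. mmu-let-7a-5p, mmu-let-7b-5p and mmu-let-7c-5p are named beyond that rule as list members, and mmu-miR-25 and mmu-miR-29a as neighbours in arm share. mmu-miR-18a-5p, mmu-miR-92a-3p, mmu-miR-155-3p and the T cell and myeloid markers were also named after their values were seen. The let-7 members not on the list, mmu-miR-16-5p and mmu-miR-16-1-3p were named likewise. Members and lists were chosen with earlier results of these data known, including the values of miR-101a. Scripts were tested on simulated counts.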

Additional observations from a re-analysis of the deposited data

How the results depend on the processing

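The log2 fold change of mmu-miR-101a-3p was negative under all 18 alternatives (-0.50 to -0.04, adjusted p 0.123 to 0.947). It passed the threshold of 0.2 with the replicate block (-0.33), in edgeR with the replicate block (-0.32) and without number 5 in both groups (-0.20). Leaving out 1 library at a time gave -0.48 to -0.04. For mmu-miR-101a-5p this gave -0.32 to 1.52, turning the sign without small EVs 2 (-0.32) and without T cell blasts 1 or 2 (-0.19 each), and leaving out number 5 in both groups gave 2.27. The 5p arm fell out under the filter at a mean of 10 CPM. The 5p share of reads differed by -0.26 to 0.26 percentage points with 1 library left out, and turned positive without small EVs 5 (0.05), without T cell blasts 5 (0.26), without number 5 in both groups (0.40) and for summed reads (0.10). With 1 library left out, the log2 ratio to mmu-miR-26a-5p differed by -0.19 to -0.09 and that to mmu-miR-146a-5p by -2.27 to -1.78. Of all miRNAs, 95 were called higher and 56 lower in small EVs. The counts became 61 higher under that filter, 63 higher by DESeq2, and 58 higher and 29 lower at 0.05, where 2 Ezh2 miRNAs were called. They were 106 higher and 73 lower with the replicate block, and 113 higher and 68 lower without number 5 in both groups. With 1 library left out they were 77 to 103 higher and 46 to 67 lower. The Icos list then held 4 to 5 calls (4 to 6 over all alternatives) and the Ezh2 list 4 to 5. Rescaling to equal sums put the median over all miRNAs at 0.19 (110 higher, 48 lower), and rescaling to miRNAs under 5% of every library put it at -0.14 (81 higher, 78 lower). mmu-miR-101a-3p stood at -0.15 and -0.50 under these, in neither case called. Of the other miRNAs named here, the block brought 5 past the threshold by limma, mmu-miR-20a-5p (adjusted p = 0.188), mmu-miR-150-5p (0.182), mmu-miR-150-3p (0.0577), mmu-miR-221-3p (0.00476) and mmu-miR-328-3p (0.183). For both ratios the sign-flip test over pairs gave an exact permutation p of 0.25, the smallest that 3 pairs allow. The cause of these changes was not tested.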
